A study of Mus musculus with 5 samples.

Results

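Lyve1, F13a1, Folr2, Cbr2, Gas6, Pf4, Timd4, Mrc1, Cd163 and Selenop are genes that macrophages living in vessel walls and other tissues are known to express. These 10 genes were taken by name from the 26189 gene columns of single-cell molecule counts from the aortic arch, and all 10 had counts in both pools of cells. They were chosen with earlier results of these data known. The cells came from female mice that had received an adeno-associated virus once by intraperitoneal injection, to induce atherosclerosis, and then a Western diet for 18 weeks. The labels give their age as 12 weeks, which is shorter than the diet and so cannot be the age at which the arches were taken. The virus uses hAAT, a promoter active in liver. Both groups received the virus and the diet, so the study holds no arch without atherosclerosis induction. The genotypes are given as C57BL/6J, here called wild-type, and C57BL/6N-Saa3tm1.1(KOMP)Vlcg/MbpMmucd, a deletion of serum amyloid A3 here called Saa3-/-. The 6J and 6N substrains are named on different sides, although the mice are described as littermates. Live CD45-positive cells were sorted, marked with sample tags and captured together, and each genotype label has 1 tag pool whose number of mice is not given. With 1 pool per label no test between the labels was possible. Every interval below is a 95% interval and covers counting error only, not differences between mice. Intervals of levels and ratios also leave out the spread of molecules between cells. Another 4 samples of the series, cultured macrophages from bone marrow, were not analysed here.

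Tissue-resident macrophages of the adventitia are in part seeded before birth and maintain themselves with little input from blood monocytes. They are known for taking up dying cells, hyaluronan, haemoglobin and mannose-capped proteins, and for keeping the vessel wall's matrix in balance. In atherosclerosis they stand beside macrophages that derive from monocytes and fill with lipid in the plaque. The 10 genes cover these roles. LYVE1 binds hyaluronan, TIMD4 binds phosphatidylserine on dying cells, MRC1 is the mannose receptor, CD163 takes up haptoglobin-bound haemoglobin, and FOLR2 is a folate receptor. GAS6 bridges phosphatidylserine to the TAM receptors, PF4 is a chemokine best known from platelets, and selenoprotein P carries selenium. F13A1 is the A subunit of coagulation factor XIII, and CBR2 is a carbonyl reductase.

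On GRCm38 the receptor genes are Timd4 at chr11:46810800-46844332, Lyve1 at chr7:110850607-110863239, Cd163 at chr6:124304656-124330527, Mrc1 at chr2:14229392-14332057 and Folr2 at chr7:101839988-101857194. The genes for secreted proteins are Selenop at chr15:3268547-3280508, Gas6 at chr8:13465374-13494490 and Pf4 at chr5:90772435-90773383, and those for the enzymes F13a1 at chr13:36867178-37050244 and Cbr2 at chr11:120729489-120732114. Molecules were counted over whole genes, introns included per the file headers. The start regions of 4 members are shown because the 10 genes varied together from cell to cell, as described further on. Each line gives the 250 bases before the annotated start from RefSeq promoter entries on GRCm38.p6, 5′ to 3′ on the gene's own strand, with AGGAAGT or its reverse complement ACTTCCT in capitals. These letters form a core that ETS-type factors such as the macrophage regulator PU.1 are known to bind.
Mrc1, chr2:14229164-14229413, plus strand: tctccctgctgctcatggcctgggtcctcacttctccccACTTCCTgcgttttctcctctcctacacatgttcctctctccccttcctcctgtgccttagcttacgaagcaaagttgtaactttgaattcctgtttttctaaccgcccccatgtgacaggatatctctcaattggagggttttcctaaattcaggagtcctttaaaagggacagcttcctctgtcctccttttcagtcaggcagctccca
Folr2, chr7:101857191-101857440, minus strand: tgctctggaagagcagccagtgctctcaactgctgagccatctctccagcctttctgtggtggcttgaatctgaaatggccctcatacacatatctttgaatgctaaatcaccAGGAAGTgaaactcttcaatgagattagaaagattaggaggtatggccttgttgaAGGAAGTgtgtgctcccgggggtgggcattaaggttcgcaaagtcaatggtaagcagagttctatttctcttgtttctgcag
F13a1, chr13:37049214-37049463, minus strand: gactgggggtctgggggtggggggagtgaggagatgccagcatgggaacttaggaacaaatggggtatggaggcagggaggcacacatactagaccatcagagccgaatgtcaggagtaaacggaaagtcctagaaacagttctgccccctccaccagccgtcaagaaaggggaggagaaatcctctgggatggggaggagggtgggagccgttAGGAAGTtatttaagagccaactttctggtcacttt
Pf4, chr5:90772185-90772434, plus strand: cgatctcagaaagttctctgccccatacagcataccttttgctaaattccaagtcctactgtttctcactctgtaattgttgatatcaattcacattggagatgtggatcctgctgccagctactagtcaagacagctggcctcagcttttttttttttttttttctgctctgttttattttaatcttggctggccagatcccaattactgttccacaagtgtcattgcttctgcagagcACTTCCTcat

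The match began 10 bases before the start of Pf4 and 36 before the F13a1 start shown. That F13a1 start lies inside the annotated gene, and the entry at the gene's 5′ end held 0 matches. In Folr2 a pair of matches began 82 and 137 bases before the start, and in Mrc1 the match began 211 bases before it. A second Folr2 entry, inside the gene, held 0 matches. Of the 9 members with a promoter entry (300 bases, reaching 50 past the start), F13a1, Folr2, Mrc1, Pf4 and Selenop held the letters on either strand in at least 1 of their entries. Of all 32851 promoter entries of that length, 9.35% held them. This share and those below are per entry, whereas members are counted by gene, and F13a1, Folr2 and Selenop have more than 1 entry. The 2 measures are therefore not alike. The letters were picked for display after 9 strings had been searched on both strands, among them GAGGAAG (5 members, 13.6% of promoters) and GGAAGT (6 members, 23.8%), both of which overlap AGGAAGT. The E-box CACGTG was in 0 of 9 members and in 7.15% of promoters. A match describes letters and shows no binding.

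The pool labelled wild-type held 833 cells and the pool labelled Saa3-/- 823, after 56 and 31 cells with over 25% of molecules from mitochondrial genes were left out. The median cell had 6415 molecules in the former and 4698 in the latter, and the pools shared 0 cell barcodes. Saa3 itself went against its label over all cells, with 148 CPM (molecules of the gene for every 1000000 counted in those cells) in the pool labelled wild-type and 242 CPM in the pool labelled Saa3-/-. In macrophages it followed the label (320 and 26.9 CPM), and in fibroblasts it did not (26.9 and 1570 CPM). The macrophage molecules were uneven too, since under the wild-type label 3 of 228 macrophages held 486 of 894. Saa3 was found in 56 of 228 and 30 of 163 macrophages. T cells held 31.8 and 19.7 CPM of Saa3, and B cells 123 and 26.9 CPM. Under the wild-type label 1 B cell held 22 of the 27 B cell molecules. The macrophage level under the Saa3-/- label was thus near that of T and B cells, so detection there does not show that macrophages made Saa3. Without the 3 highest macrophages of each pool, a setting added after the values were seen, macrophages stood at 149 and 19.5 CPM. Under the Saa3-/- label, 3 of 66 fibroblasts held 1126 of the 1144 fibroblast molecules and of the 1268 in all cells. Without these 3 cells, a setting added after their values were seen, Saa3 followed the label over all cells (148 and 27.6 CPM) and stood at 26.9 and 28.4 CPM in fibroblasts. Cells were assigned to types by fixed marker genes, none of them a member. A macrophage-gated cell had at least 20 molecules of C1qa, C1qb and C1qc per 10000. This sum separated the cells well: 1166 of 1656 lay under 10 and 375 at 40 or more. In the pool labelled wild-type 228 cells passed this gate (27.4%, interval 24.4 to 30.5), and in the pool labelled Saa3-/- 163 did (19.8%, 17.1 to 22.7). The median gated cell had 9810 and 6883 molecules. Of the 10 genes that led the gate by fold over other cells, 4 were macrophage markers and 0 marked another type. Of these 4, C1qa, C1qb and C1qc are the 3 genes that define the gate, so Adgre1 was the 1 marker that the gate had not used. Of the gated cells, 18 and 11 also passed the gate of another main type.

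Macrophage-gated cells held the highest level of 7 of the 10 members in both pools, among the 7 cell types with at least 15 cells in each. These were Lyve1, F13a1, Folr2, Pf4, Mrc1, Cd163 and Selenop, and none of their counting intervals overlapped that of the next type. Gas6 was highest in fibroblasts and Timd4 in dendritic cells. Cbr2 was highest in macrophages in the pool labelled wild-type and in smooth muscle cells in the other. T and B cells were taken as the background of free RNA. They held 1.32% to 8.96% of the macrophage level for 9 members and 25.9% for Gas6 in the pool labelled wild-type, and 3.31% to 18.3% for all 10 in the pool labelled Saa3-/-. The T and B cells had a median of 4285 and 3896 molecules. In the pool labelled Saa3-/- the highest B cell held 29 of the 33 Mrc1 molecules of B cells, and the highest for Cd163 held 15 of 17. The background of these 2 members there rests in part on single cells and may not be free RNA alone.

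**Figure D1:**
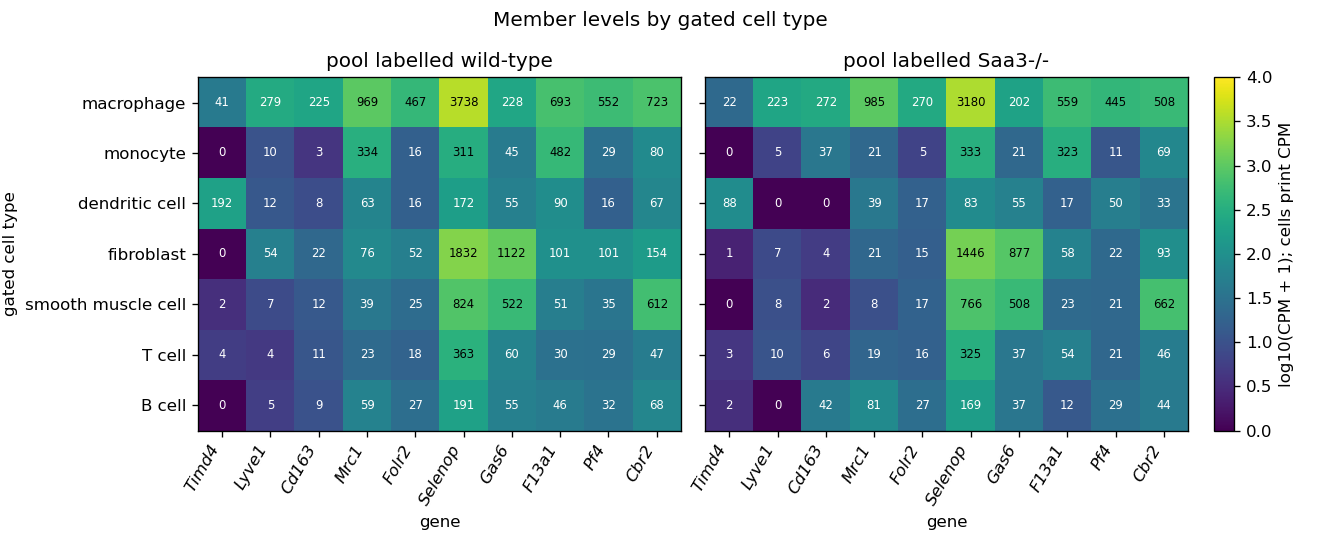
Level of each member (columns) in each gated cell type (rows) in the 2 pools; colour is log10(CPM + 1) and the printed number is CPM, to be compared down a column and not between genes. The macrophage row is the brightest for 7 members in both pools, whereas Gas6 peaks in fibroblasts and Timd4 in dendritic cells.

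Among the receptors, Lyve1 had the lowest level in T and B cells relative to macrophages in both pools. It stood at 279 CPM (260 to 300) in macrophages of the pool labelled wild-type and 223 CPM in those labelled Saa3-/-. Lyve1 molecules were found in 71 of 228 and 40 of 163 cells, the median cell had 0, and the highest had 57 and 32. T and B cells held 5 and 12 molecules, at 1.32% and 3.31% of the macrophage CPM. In the pool labelled Saa3-/- Mrc1 was close at 3.50%, and 1 B cell held 29 of its 56 molecules in T and B cells. Lymphatic endothelium is also known to make Lyve1 RNA. The 5 lymphatic markers summed to 3.93 and 5.66 CPM in the gate, with Ccl21a at 0 in both pools.

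Cd163 was likewise uneven among macrophages, with 225 CPM (207 to 243) and 272 CPM (246 to 301). It was found in 77 of 228 and 47 of 163 cells, and the tenth of cells with the most held 75.3% and 74.5% of its molecules. The mannose receptor gene Mrc1 was broad in comparison. Its 969 CPM (933 to 1007) and 985 CPM (934 to 1038) came from 199 and 130 cells, and the median cell had 7 and 5 molecules. In monocyte-gated cells Mrc1 stood at 334 CPM (273 to 405) in the pool labelled wild-type, from 13 of 33 cells, and at 21.2 CPM (5.77 to 54.2) in the other, from 3 of 26 cells. The log2 ratio between the pools was -3.82 (-5.88 to -2.58), where 5.19% of all genes tested in monocytes were past 2-fold lower, and the 3 highest monocytes of the former pool held 60.6% of its molecules there. Folr2 gave 467 CPM (442 to 493) and 270 CPM (244 to 299), in 146 and 71 macrophages.

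Timd4 was found in the fewest macrophages. It gave 41.5 CPM (34.3 to 49.8) and 21.9 CPM (14.9 to 31.1), from 116 and 31 molecules. It was found in 37 of 228 and 17 of 163 gated macrophages, with at most 11 and 8 molecules in a cell. Its highest level was in dendritic-gated cells, at 192 CPM (142 to 254) and 88.5 CPM (50.6 to 144). That level rested on very few cells. In the pool labelled wild-type 3 of 20 dendritic cells held 16, 15 and 14 of the 49 molecules, and in the pool labelled Saa3-/- 1 of 18 held 12 of 16. All 4 of these cells also had molecules of Xcr1 and Clec9a, which mark cross-presenting dendritic cells, and of the dendritic marker Flt3. They had between 4 and 8 molecules of C1q genes among at least 14915. Xcr1, Clec9a and Flt3 are among the markers of the dendritic gate, and cells high in C1q go to the macrophage gate first. Both traits therefore follow in part from the gating and are no separate sign of identity. These 4 cells were singled out after their values were seen. F13a1 was found in 2 of the 4, with 17 and 2 molecules, and Lyve1 in 1, with 2 molecules. The cell with 17 F13a1 molecules also had 5 of Gas6, 5 of Selenop and 2 of Cbr2, and Mrc1 was at 0 in all 4.

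Of the secreted members, Selenop gave 47.2% and 47.7% of all member molecules counted in the gate, with no allowance for transcript length. Its level was 3738 CPM (3667 to 3811) and 3180 CPM (3087 to 3274), and 226 of 228 and 160 of 163 macrophages had at least 1 molecule. Fibroblasts followed with 1832 and 1446 CPM. T and B cells held 335 and 285 CPM, and 65.5% and 51.6% of them had a Selenop molecule, so presence of Selenop alone says little about a cell. Pf4 stood at 552 CPM (524 to 580) and 445 CPM (411 to 482) in macrophages, from 169 and 96 cells. The 6 platelet markers summed to 5.01 and 7.07 CPM there, with Gp1bb and Gp6 at 0 in both pools.

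Gas6 was highest in stromal cells, which were present although the sort was for CD45-positive cells. Fibroblasts gave 1122 CPM (1056 to 1190) and 877 CPM (810 to 948), and smooth muscle cells 522 CPM (474 to 573) and 508 CPM (446 to 577). Macrophages followed with 228 CPM (211 to 247) and 202 CPM (179 to 227), from 146 and 92 cells. T and B cells held 59.2 and 36.9 CPM. Fibroblast markers summed to 917 and 736 CPM in macrophages against 27748 and 32733 CPM in fibroblasts, and smooth muscle markers to 732 and 591 CPM against 27787 and 24737 CPM in their own cells. Across gated macrophages the mean level of all members had r of 0.00 and -0.03 with the fibroblast markers. With the smooth muscle markers this mean had 0.04 and 0.03. These values cover the members together, and the relation of Gas6 alone to these markers was not tested.

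Each enzyme also had a high level in a second cell type. F13a1 gave 693 CPM (662 to 724) and 559 CPM (521 to 600) in macrophages, in 137 and 82 cells. Monocytes were next with 482 CPM (408 to 565) and 323 CPM (247 to 415), in 23 of 33 and 14 of 26 cells. In monocytes Timd4 was at 0 in both pools, Lyve1 had 3 and 1 molecules, Folr2 5 and 1, and Selenop stood at 311 and 333 CPM, near the level in T and B cells. Cbr2 gave 723 CPM (692 to 755) and 508 CPM (471 to 546) in macrophages and 612 CPM (560 to 668) and 662 CPM (591 to 740) in smooth muscle cells, where 94 of 102 and 61 of 64 cells had it. Of these smooth muscle cells, 16 and 17 also passed another main gate. Cbr2 counts carry a further uncertainty, since 12.1% of the 50-base stretches of its transcripts also occur in Gm11771. Exons of F13a1, Folr2, Gas6 and Selenop overlap a gene on the opposite strand (Gm30489, Gm10602, Tmem255b and Ccdc152), and whether strand was used in counting is not stated.

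The members varied together within macrophages. To compare cells at 1 depth, each was thinned to 3000 molecules, which left 214 and 147 cells after 14 and 16 shallower ones were dropped. Pearson's r between log-scaled levels was above 0 for all 45 pairs in each pool. It ranged from 0.14 to 0.69 with a median of 0.47 in the pool labelled wild-type and from 0.17 to 0.68 with a median of 0.46 in the pool labelled Saa3-/-. Without thinning the medians were 0.57 and 0.54. These are descriptions across cells that share a library and carry no p. F13a1 and Cbr2 made the closest pair in both pools (0.69 and 0.68). The loosest pair was Timd4 with Mrc1 in the pool labelled wild-type (0.14) and Timd4 with Gas6 in the other (0.17). Not every pair with Timd4 was loose, since Timd4 and Lyve1 had 0.48 and 0.40.

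**Figure D2:**
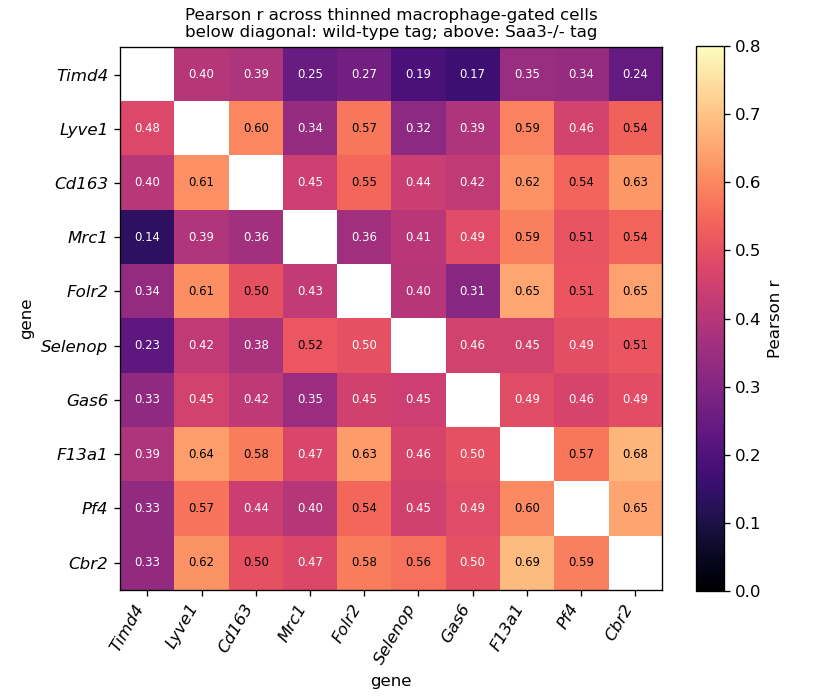
Pearson r between the log-scaled levels of each pair of members across macrophage-gated cells thinned to 3000 molecules; below the diagonal the pool labelled wild-type (214 cells), above it the pool labelled Saa3-/- (147 cells). All 45 pairs are above 0 on both sides, and the lowest value on each side is a pair with Timd4 (0.14 and 0.17).

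Detection was nested rather than exclusive. Of the 50 thinned cells with Lyve1 in the pool labelled wild-type, 46 had F13a1, 46 Folr2, 48 Cbr2 and 48 Pf4. Among the 164 cells without Lyve1 these genes were found in 37.2%, 32.9%, 45.1% and 41.5%. In the pool labelled Saa3-/- the 30 cells with Lyve1 had F13a1 in 26, Folr2 in 24, Cbr2 in 27 and Pf4 in 24, against 29.9%, 18.8%, 35.0% and 34.2% of the 117 cells without it. Cd163 went with Lyve1 in 32 of 50 cells against 18 of 164, and in 21 of 30 against 16 of 117. Timd4 lay innermost in the pool labelled wild-type: 16 of its 17 cells had Lyve1 and 17 of 17 had F13a1 and Mrc1, while 16 of the 50 Lyve1 cells had Timd4. The 11 Timd4 cells of the pool labelled Saa3-/- had Lyve1 in 6, F13a1 in 10 and Mrc1 in 11. The intervals of the Lyve1 shares, 71.3% to 99.9% and 23.4% to 83.3%, overlapped.

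The number of members found per macrophage formed a broad range and not a split into cells with all and cells with none. At 3000 molecules, 159 of 214 cells (74.3%, 67.9 to 80.0) of the pool labelled wild-type and 91 of 147 (61.9%, 53.5 to 69.8) of the pool labelled Saa3-/- had at least 3 of the 10. Before thinning the shares were 90.4% and 82.8%. T and B cells at the same depth reached 3 members in 5.85% and 2.95%. At least 8 members were found in 20.6% (15.4 to 26.6) and 15.6% (10.2 to 22.5) of macrophages, and all 10 in 11 and 4 cells. Exactly 0 members were found in 5 and 4 cells. Without Selenop and Mrc1, the broadest members, the share with at least 3 was 50.9% and 40.1%. The median cell had 4 members in the pool labelled wild-type and 3 in the other. The intervals of the shares with at least 3 members overlapped narrowly, and with 1 pool per label the difference has no replicate check.

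**Figure D3:**
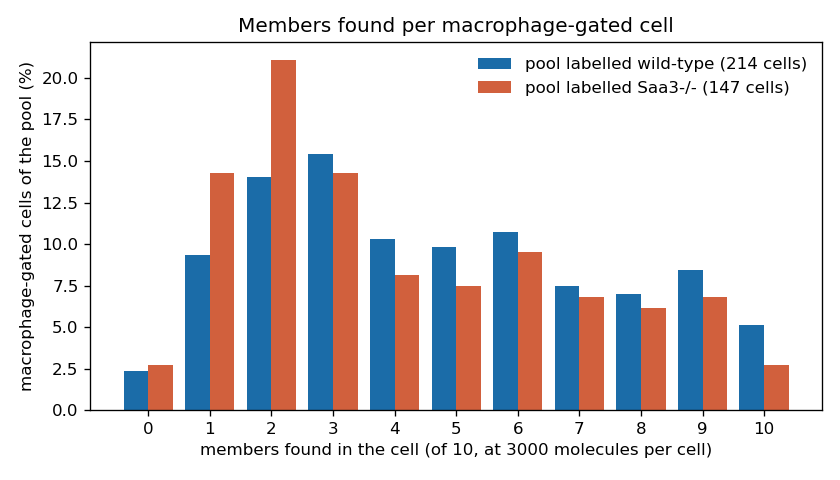
Share of macrophage-gated cells of each pool (vertical axis, percent) by the number of the 10 members found (horizontal axis), after thinning to 3000 molecules. Cells spread from 0 to 10 members without a gap, and the bars at 1 and 2 members are taller in the pool labelled Saa3-/-.

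Each member's level was correlated with the mean of the other 9, and other genes with the mean of all 10. All 10 members had r of at least 0.3 in both pools, against 0.862% of the 3828 genes found in at least 10% of the cells of each pool. That limit was not applied to the members, and Timd4, found in 7.94% and 7.48% of the thinned cells, did not reach it. The members were also chosen with earlier results of these data known, so this is no independent comparison with all genes. Timd4 had the lowest values (0.43 and 0.38), and F13a1 (0.78 and 0.79) and Cbr2 (0.76 and 0.79) the highest. Of the 12 other genes most like the members, ranked by the weaker pool, 11 are named here: C4b, Maf, Fcgrt, Ly6e, Ednrb, Itm2b, Ltc4s, Serinc3, Clec10a, Ifitm3 and Ccl6. C4b (0.58 and 0.69) encodes complement component C4. Maf (0.51 and 0.63) encodes a transcription factor known from resident macrophages, and Fcgrt (0.50 and 0.48) the neonatal Fc receptor. Ednrb, a receptor for endothelin, had 0.47 and 0.51, and Ltc4s, which makes leukotriene C4, had 0.42 and 0.51. Clec10a, a galactose-binding lectin, had 0.40 and 0.55.

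Of the 8 genes most unlike the members, 7 are named here: Mpeg1, Basp1, Cd52, Itgax, Cd9, Lgals3 and Fxyd5. Mpeg1, the pore-forming perforin-2 of phagocytes, had r of -0.47 and -0.49, and Basp1 had -0.43 and -0.53. Itgax, which encodes CD11c (-0.37 and -0.41), Cd9 (-0.37 and -0.45) and Lgals3, which encodes galectin-3 (-0.34 and -0.41), belong to the list of lipid-laden macrophage genes. The summed level of that 12-gene list had r of -0.36 and -0.47 with the members. A list of 18 other genes reported in resident macrophages, which holds Maf, Ednrb and Ltc4s, had 0.68 in both pools, and C-type lectins and scavenger receptors other than the members had 0.41 and 0.46. These lists, too, were chosen with earlier results of these data known. MHC class II genes had -0.13 and -0.03, and the genes of monocyte-derived cells -0.18 and 0.03. Genes raised by tissue dissociation had 0.12 and 0.36, and the cell's depth before thinning -0.07 and -0.24. Their part in these correlations was not tested.

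**Figure D4:**
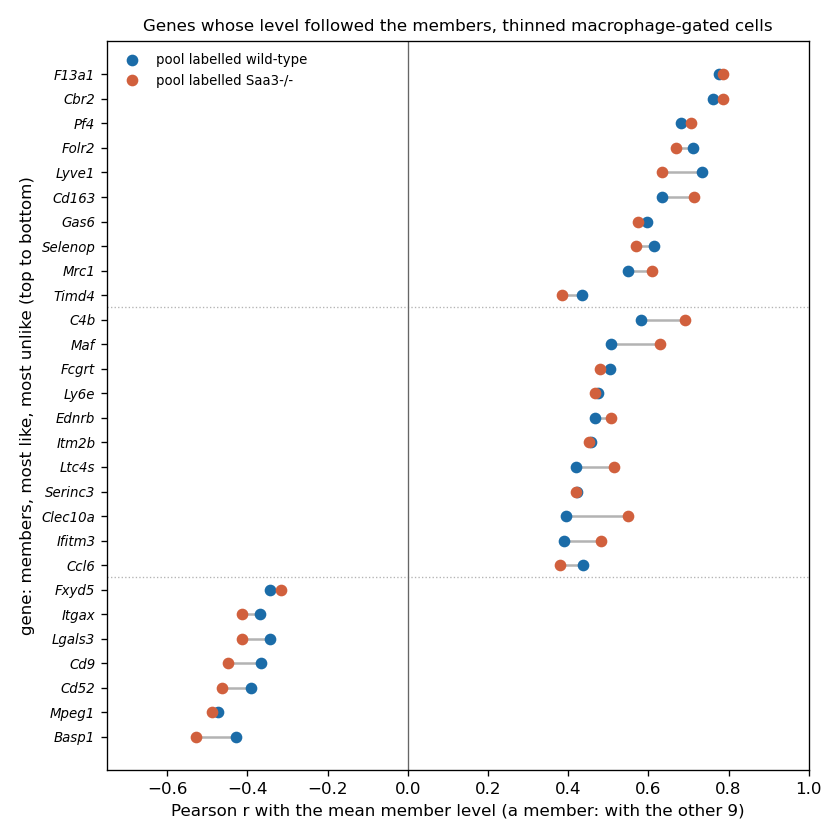
Pearson r with the mean member level across thinned macrophage-gated cells (horizontal axis) for the 10 members against the other 9 (top), 11 of the 12 other genes most like them (middle) and 7 of the 8 most unlike (bottom). Points of the pools labelled wild-type and Saa3-/- lie on the same side of 0 for each of the 28 genes plotted. For the genes that are not members this follows from the ranking by the weaker pool.

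Between the pools, most members were lower in macrophages labelled Saa3-/-, and by small amounts. Ratios are log2 of CPM with the Saa3-/- label in the numerator and the wild-type label in the denominator, with 0.5 molecule added to each count. Of the 10 members, 8 were lower, while 46.3% of the 8027 genes with at least 50 molecules were. None of the 10 passed a 2-fold difference, as did 0.959% of genes lower and 0.885% higher. The median ratio was -0.31 over the members and 0.02 over all genes. Counting intervals lay below 0 for 7 members and above 0 for 1, as they did for 7.5% and 9.14% of the 8027 genes. These intervals treat molecules as separate draws, although the tenth of cells with the most held 73.8% and 85.7% of the Lyve1 molecules. They therefore understate the uncertainty of uneven members. Intervals narrow as molecules rise, and the members ran from 116 and 31 molecules (Timd4) to 10451 and 4498 (Selenop). The shares over all genes, which begin at 50 molecules, are therefore not matched to the members in abundance. Members that vary together across cells are not independent of each other, so the counts of members given here are no sum of separate observations. Fewer cells high in the members and less RNA of them per cell both lower a summed level.

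Timd4 had the lowest ratio, -0.90 (-1.54 to -0.34), with the widest interval. Folr2 followed with -0.79 (-0.96 to -0.62), a 1.73-fold lower level, and Cbr2 with -0.51 (-0.64 to -0.39). Lyve1 (-0.33, -0.52 to -0.14), F13a1 (-0.31, -0.43 to -0.19), Pf4 (-0.31, -0.44 to -0.17) and Selenop (-0.23, -0.28 to -0.18) were closer to 0. The interval of Gas6 held 0 (-0.17, -0.38 to 0.03), as did that of Mrc1 (0.02, -0.07 to 0.12). Cd163 alone had an interval above 0 (0.28, 0.09 to 0.46). When each cell counted the same whatever its depth, Lyve1 moved to -0.04, F13a1 to -0.17, Cbr2 to -0.25, Mrc1 to 0.16 and the median to -0.18, while Folr2 was at -0.66 and Timd4 at -0.83. With the 5 cells richest in member molecules left out of each pool, Timd4 reached -1.10, Cd163 moved to 0.15 and Mrc1 to -0.02. The share of member molecules in a cell ran from 0 to 4.16% with a median of 0.603% in the pool labelled wild-type, and from 0 to 4.26% with a median of 0.416% in the other, so the pools overlapped over almost their whole range.

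**Figure D5:**
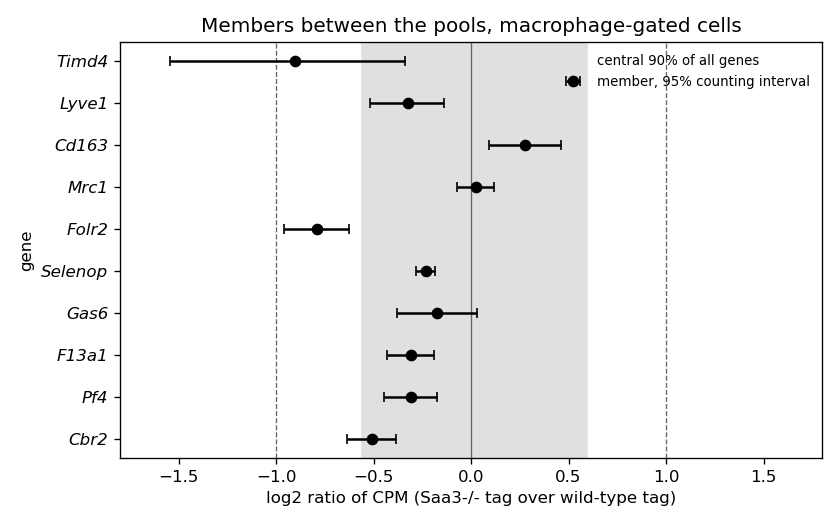
Log2 ratio of CPM in macrophage-gated cells (horizontal axis; Saa3-/- label divided by wild-type label) for each member, with 95% counting intervals; grey spans the central 90% of all 8027 genes (-0.56 to 0.60) and dashed lines mark 2-fold. Timd4 and Folr2 lie to the left of the grey span, and Cd163 is the one member whose interval lies above 0.

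In fibroblasts, several members were further apart between the pools than in macrophages. Lyve1 had 52 and 5 molecules there (log2 ratio -2.85, -4.65 to -1.66), Pf4 98 and 16 (-2.17, -3.07 to -1.44), Mrc1 73 and 15 (-1.84, -2.79 to -1.06) and Folr2 50 and 11 (-1.73, -2.87 to -0.82). Of all genes tested in fibroblasts, 1.87% were past 2-fold lower. These molecules sat in few cells: 5 cells held 46 of the 52 Lyve1 molecules and 81 of the 98 Pf4 molecules under the wild-type label. Of its 83 fibroblasts, 11 also passed another main gate, against 4 of 66. What part those cells had in the ratios was not tested. Gas6, the member highest in fibroblasts, had -0.35 (-0.50 to -0.21) there and -0.04 (-0.27 to 0.19) in smooth muscle cells, and Cbr2 had 0.11 (-0.09 to 0.32) in smooth muscle cells.

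Lists of genes related to the members or set against them gave the following picture in macrophages. The counts and medians of a list include any member that belongs to it. For such lists they are not separate from the member ratios above. All lists were chosen with earlier results of these data known. Of 18 other genes reported in resident macrophages, 12 were lower and 6 higher in the pool labelled Saa3-/-, with a median of -0.20. Over all 8027 genes 46.3% were lower and 53.7% higher, with 0.959% past 2-fold lower and 0.885% past 2-fold higher. These shares stand beside every list here and below, and counts over lists with few tested genes say little against them. The chemokine gene Ccl8 (-1.64, -1.83 to -1.47) and the lectin gene Cd209f (-1.13, -1.50 to -0.79) were past 2-fold lower, and the chemokine gene Ccl24 (1.50, 1.03 to 1.98) was past 2-fold higher. Ccl8 stood at 650 CPM in the pool labelled wild-type, from 1817 molecules, against 294 molecules in the other. Wfdc17 (-0.32) and Fcrls (-0.08) were other abundant genes of the list. The 12 lipid-laden genes were all higher, as were 53.7% of all genes, and 5 of them were past 2-fold, with a median of 0.86. Gpnmb (2.48, 2.35 to 2.62), Fabp5 (2.37, 2.22 to 2.53), Fabp4 (2.16, 1.55 to 2.82), Mmp12 (1.31) and Lpl (1.01, 0.90 to 1.12) were the 5. Gpnmb encodes a lysosomal glycoprotein of foam cells, Fabp4 and Fabp5 encode fatty acid carriers, and Lpl encodes lipoprotein lipase.

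Around GAS6 and its receptors, 3 of 4 tested genes were lower and 0 past 2-fold, with Mertk at -0.12 and Axl at 0.44 (0.25 to 0.63). In the wider list for phosphatidylserine recognition, Timd4 was the 1 of 7 tested that was lower, and Mfge8, another bridging protein, was just past 2-fold higher (1.00, 0.65 to 1.36). Of 11 C-type lectins and scavenger receptors, 5 were lower and 6 higher, with Mgl2 at 0.54, Cd36 at 0.13 and Cd209g past 2-fold lower (-1.17, -1.95 to -0.50). In haem and iron handling, 3 of 7 were lower, and Hmox1, which breaks haem down, had -0.96 (-1.12 to -0.80) beside Cd163 at 0.28. Of the 4 carbonyl reductases tested, 4 were lower with a median of -0.61, Dcxr at -0.66 among them. Of 6 folate genes, 5 were lower and 0 past 2-fold, with Folr2 the lowest and Ggh at -0.19. Both hyaluronan genes tested were lower, Lyve1 and Cd44 (-0.29).

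The remaining lists were mixed. Of 14 selenoprotein genes 5 were lower and 9 higher, 0 past 2-fold, with Gpx1 at 0.06 and Selenow at -0.19. Coagulation and fibrin genes were lower in 3 of 9, and F7, from 12 and 39 molecules, was past 2-fold higher (2.64, 1.72 to 3.75). Of 3 genes for platelet chemokines and receptors, Ccr1, from 36 and 62 molecules, was past 2-fold higher (1.76, 1.15 to 2.40). The inflammatory list had 8 of 10 higher with a median of 0.31, and Il1a, from 35 and 36 molecules, was past 2-fold higher (1.02, 0.31 to 1.74). Monocyte-derived genes were higher in 4 of 6, MHC class II genes in 3 of 7 and dissociation genes in 9 of 12, each with 0 past 2-fold. The dissociation list had a median of 0.17.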

How the data were processed

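Per the labels' protocols, sorted aortic cells were captured on BD Rhapsody with sample tags. Per the file headers, the authors used the BD Rhapsody WTA Analysis Pipeline 1.11.1 with GRCm38 and GENCODE release 19, and deposited counts of molecules per cell and gene, 1 table per tag. The submitters' processing notes also name R 4.3.1 and Seurat 4.3.0. Which tag is which genotype comes from the tables' names only, and 647 of 2401 tag calls were undetermined and 11 were multiplets. No doublet caller was run on the cells.

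Here, Python 3.11.15 with numpy 2.4.6, pandas 2.3.3 and scipy 1.17.1 was used. Cells with over 25% mitochondrial molecules were left out. Cell types were gated by fixed marker sums per 10000 molecules with at least 3 markers found, at minimums read from the marker distributions. Molecules were summed per type and pool and given as CPM with exact Poisson intervals, shares with exact Clopper-Pearson intervals, and ratios with exact binomial intervals (95%). Genes needed 50 molecules over both pools. Correlations used log-scaled levels of cells thinned to 3000 molecules. Named genes are the 10 members, the 12 most and 8 least like them, and, of each gene list, those past 2-fold and up to 4 with the most molecules. Some of these, and a detail of the treatment, are not reported here. The members, lists and markers were chosen with earlier results of these data known. Ratios and correlations were tested on simulated data. Positions and overlaps use GENCODE release M21 on GRCm38. Alternatives were other cell filters, gates, weights, depths and pseudocounts.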

Additional observations from a re-analysis of the deposited data

How the results depend on the processing

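The median log2 ratio of the members stayed between -0.35 and -0.18 under all 10 alternatives, and 0 members passed 2-fold in 9 of them. With the 5 cells richest in member molecules left out of each pool, 1 did, Timd4. Among the alternatives, a minimum of 20 molecules only changes which other genes are counted, so no member ratio could move under it. Gas6 changed side of 0 (0.00) when each cell weighed the same, and Mrc1 (-0.02) without those 5 cells. With equal cell weights Lyve1, F13a1, Cbr2 and Mrc1 also moved beyond their counting intervals. The log2 ratio of Saa3 over all cells, 0.71, turned to -2.42 without the 3 fibroblasts highest in it under the Saa3-/- label, and to -1.68 without the 3 highest fibroblasts and 3 highest macrophages of each pool, both added after seeing the data. The share of macrophages with at least 3 members depended on the limit and the depth, in the pools labelled wild-type and Saa3-/- respectively. It was 88.3% and 83.0% with at least 2 members, 58.9% and 47.6% with at least 4, 90.4% and 82.8% without thinning, 65.9% and 55.0% at 2000 molecules, 80.6% and 73.9% at 5000, and 50.9% and 40.1% without Selenop and Mrc1. It was lower in the pool labelled Saa3-/- under each of the 12 settings tried. The depths, the last setting and a second random thinning were added after seeing the data. Macrophages were the highest type for 8 and 7 members under 4 of 5 alternatives. With a gate of 2-fold minimums the counts were 9 and 8, because dendritic cells then fell under 15 cells and Timd4 was ranked without them. Of the 20 genes named as most or least like the members, 15 were kept as deposited, 18 by Spearman's rank, 15 with a second thinning and 17 without cells of another gate, and all 20 kept their sign in both pools. They had been picked from the same cells, ranked by the weaker pool. Their kept sign is therefore no separate support. No paired analysis was possible because each genotype label has 1 pool, which also means that no replicate could be left out. Depth limits Timd4 most, with 31 molecules in the smaller pool.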
